A study of Mus musculus with 9 samples.

Results

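The immunity-related GTPases, or p47 GTPases, are a family of interferon-inducible proteins of the mouse. 7 genes of the family were chosen by name (Irgm1, Irgm2, Igtp, Iigp1, Tgtp1, Tgtp2 and Ifi47), out of 50686 genes in the count tables. RNA-seq was available from 9 libraries of mouse bone marrow cell lines, each immortalised with a retrovirus encoding BCR/ABLp185, an oncogene of acute leukemia. One line was wild type (wt), one was deficient for Stat5a (Stat5a-/-) and one was deficient for Stat5b (Stat5b-/-), all on a C57BL/6N background and grown in the same RPMI medium with serum, and the labels name no interferon treatment. Each genotype was represented by 1 cell line in 3 technical replicates, so genotype and cell line cannot be told apart, and every SD, SE and p-value below describes the spread between libraries of the same line. The question was whether the loss of STAT5A or of STAT5B, the transcription factors activated by BCR/ABL, changes the expression of interferon-responsive genes.

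Interferon-gamma binds a receptor that activates the kinases JAK1 and JAK2, and the signal acts at DNA elements called GAS and induces factors such as IRF1. Type I interferons act through a second receptor, and their signal, which involves STAT2 and IRF9, acts at elements called ISRE. Both routes induce the immunity-related GTPases, which protect mouse cells against intracellular parasites such as Toxoplasma by loading onto the parasite's vacuole and breaking its membrane. Irgm1, Irgm2 and Igtp (Irgm3) are the regulatory members, which sit on the cell's own membranes and keep the others inactive there. Iigp1 (Irga6), Tgtp1 and Tgtp2 (Irgb6) and Ifi47 (Irgd) are effector members, which accumulate on the vacuole.

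Library totals lay between 11948136 and 19016396 counted reads, and 13852 genes passed the filter on low counts, all 7 members among them, and all 7 also pass it without the Stat5b-/- libraries. Stat5a, at a mean of 43.2 CPM (normalised read counts, scaled to library size by TMM) in wt libraries, was at 12.4 in the Stat5a-/- and 83.7 in the Stat5b-/- line. Stat5b was at 106 CPM in wt, 142 in Stat5a-/- and 63.4 in Stat5b-/-, so the deleted gene was lowered in its own line (adjusted p = 1.69e-04 for Stat5b and 4.69e-07 for Stat5a) without being lost from the counts. The sum of 14 B-lineage markers was 7928 ± 268 CPM in the wt libraries (SD, n = 3), 10294 ± 376 in those of Stat5a-/- and 9692 ± 529 in those of Stat5b-/-. Of the 14, 7 rose and 4 fell in Stat5b-/- against wt, and 7 rose and 3 fell in Stat5a-/-. Of all genes, 24.2% were higher and 22.0% lower in Stat5b-/-, and 19.8% and 16.3% in Stat5a-/-. The recombinase gene Rag1 changed most, with log2 fold changes of -6.59 in Stat5b-/- (adjusted p = 3.67e-11) and -8.59 in Stat5a-/- (adjusted p = 2.13e-11). Vpreb2 fell by 1.90 in Stat5b-/- (adjusted p = 7.65e-09). Dntt rose by 1.32 in Stat5b-/- (adjusted p = 3.44e-06) and fell by 1.63 in Stat5a-/- (adjusted p = 1.44e-06). Transcripts of T cells were present too: the sum of 16 T-cell markers was 793, 1083 and 998 CPM in the wt libraries, 1577, 1653 and 1452 in Stat5a-/-, and 2617, 1832 and 2443 in Stat5b-/-. No T-cell marker was at 0 in all libraries of a line, and the ratio of the mean sum to that of wt was 1.63 in Stat5a-/- and 2.40 in Stat5b-/-. Cd2, an adhesion receptor, had the largest ratio in Stat5a-/- (55.1 CPM in wt, 276 in Stat5a-/- and 96.3 in Stat5b-/-), and without it the ratios of the other 15 markers were 1.42 and 2.44. In these bulk libraries, more cells of a type and more RNA per cell cannot be told apart. Macrophage markers were low, with sums of 42.1 CPM in wt, 19.2 in Stat5a-/- and 31.3 in Stat5b-/-, and single markers differed in their order. Mrc1 (21.4, 2.58 and 7.47 CPM), Cd68 (12.9, 8.95 and 10.9 CPM) and Fcgr1 (1.45, 0.29 and 0.16 CPM) were highest in wt. Lyz2 (3.90, 4.25 and 8.23 CPM) and Csf1r (0.65, 0.74 and 1.41 CPM) were highest in Stat5b-/-.

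6 of the 7 genes lie on chromosome 11 in GRCm38. The first cluster spans 235 kb and holds Irgm1 (chr11:48861968-48871683, minus strand), Tgtp1 (chr11:48985327-48994172, minus strand), Tgtp2 (chr11:49057194-49064206, minus strand) and Ifi47 (chr11:49076587-49096974, plus strand). The second spans 23.2 kb and holds Igtp (chr11:58199556-58207591) and Irgm2 (chr11:58199618-58222782), both on the plus strand. Iigp1 lies on another chromosome. Stat5b (chr11:100780731-100850724) and Stat5a (chr11:100859351-100885169), the deleted genes, are on the same chromosome as 6 of the members.

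The sequences just upstream of the transcription starts show what most of the chromosome 11 members share. RefSeq (GRCm38.p6) promoter windows, from 250 bases before to 50 bases after the start, were available for 6 of the 7 genes. They were searched on both strands for a GAS element, spelled TTCNNNGAA, and for an ISRE core, made of GAAA, any 2 bases and GAAA again. In the stretches printed here, the capitals mark the matches to these letters.
Irgm2: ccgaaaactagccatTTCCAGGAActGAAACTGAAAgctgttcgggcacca
Igtp: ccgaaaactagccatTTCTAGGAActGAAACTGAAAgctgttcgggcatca
Tgtp1: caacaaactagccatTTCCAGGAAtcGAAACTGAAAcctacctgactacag
Tgtp2: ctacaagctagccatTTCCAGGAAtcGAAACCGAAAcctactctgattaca
Irgm1: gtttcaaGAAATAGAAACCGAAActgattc
The Irgm2 stretch is chr11:58214887-58214937 on the plus strand and the Igtp stretch chr11:58199496-58199546 on the plus strand. Those of Tgtp1 (chr11:48992299-48992349) and Tgtp2 (chr11:49064258-49064308) are on the minus strand. These 4 stretches overlap no exon of the gene models used for counting. In those models the Irgm2 and Tgtp1 stretches lie within the span of their own gene, because the models begin further upstream than the RefSeq start. The Irgm1 stretch (chr11:48871428-48871457, minus strand) is exonic in those models and lies upstream of the RefSeq start.

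In Irgm2, Igtp, Tgtp1 and Tgtp2 a GAS element was followed, after 2 bases, by an ISRE core, with the GAS element starting 75, 45, 88 and 81 bases before the transcription start. This joined motif, on either strand, was present in 5 of 32851 promoter windows of the mouse (0.0152%), of which 4 belonged to these genes and the fifth to Gm12185, a further family member of the first cluster. The joined motif was spelled with the spacing of these 4 genes, so its count among all windows is no test of them. The printed stretches around it are much alike, so the 4 matches are not independent. The GAS letters alone were in 8.30% of all windows and the ISRE letters alone in 3.44%, matches within the joined motif included. Irgm1 had a pair of overlapping ISRE cores and no GAS letters. Neither motif was found in the Ifi47 window. A match of letters is a description of the sequence and was not tested for binding.

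The first of the regulatory members, Irgm1, which is needed for resistance to mycobacteria and for autophagy, was at 49.8, 60.0 and 52.8 CPM in the wt libraries, at 86.3, 79.7 and 72.4 in Stat5a-/- and at 115, 106 and 123 in Stat5b-/-. The 3 lines did not overlap. Irgm1 was 2.11-fold higher in Stat5b-/- than in wt (log2 fold change 1.08, SE 0.11, adjusted p = 3.96e-06) and 1.47-fold higher in Stat5a-/- (adjusted p = 0.00139), the smallest differences among the 7 genes.

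Irgm2 had 12.0, 15.8 and 16.6 CPM in wt, 35.9, 35.1 and 31.4 in Stat5a-/-, and 50.2, 46.5 and 54.5 in Stat5b-/-. Its lowest Stat5a-/- library was thus well above the highest wt library. The fold change was 3.39 in Stat5b-/- (log2 1.76, SE 0.13, adjusted p = 2.51e-07) and 2.30 in Stat5a-/- (log2 1.20, SE 0.13, adjusted p = 1.11e-05). Igtp, the third regulatory gene, was measured at 28.5, 37.2 and 36.5 CPM in wt, 69.1, 66.0 and 65.5 in Stat5a-/-, and 112, 84.1 and 110 in Stat5b-/-. One Stat5b-/- library of Igtp (84.1 CPM) was lower than its companions, but still above each Stat5a-/- library. Igtp rose 2.99-fold in Stat5b-/- (adjusted p = 7.68e-07) and 1.96-fold in Stat5a-/- (adjusted p = 7.72e-05).

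The effector member Ifi47 had the highest counts of the 7 genes. It had 56.2, 73.8 and 71.6 CPM in wt, 159, 158 and 116 in Stat5a-/-, and 192, 170 and 225 in Stat5b-/-. The third Stat5a-/- library stood below the other two, and the lines did not overlap. Ifi47 rose 2.91-fold in Stat5b-/- (log2 1.54, SE 0.15, adjusted p = 3.28e-06) and 2.14-fold in Stat5a-/- (log2 1.10, SE 0.15, adjusted p = 7.75e-05).

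Tgtp1 and Tgtp2 are close copies of one another. Tgtp1 had 1.33, 2.22 and 2.19 CPM in wt, 6.15, 6.10 and 4.15 in Stat5a-/-, and 8.02, 6.22 and 8.91 in Stat5b-/-. Its lowest Stat5b-/- library (6.22 CPM) was barely above its highest Stat5a-/- library (6.15 CPM). Tgtp2 had 2.54, 4.34 and 3.81 CPM in wt, 6.78, 8.54 and 6.49 in Stat5a-/-, and 10.6, 10.1 and 10.4 in Stat5b-/-. Tgtp1 rose 3.97-fold in Stat5b-/- (adjusted p = 1.82e-05) and 2.83-fold in Stat5a-/- (adjusted p = 3.31e-04). For Tgtp2 the folds were 2.89 (adjusted p = 2.77e-05) and 2.02 (adjusted p = 0.00129).

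Of all runs of 50 bases, the read length, in the transcripts of Tgtp1, 79.4% also occur in Tgtp2, and 85.8% of those of Tgtp2 also occur in Tgtp1. Reads that map to several places were not counted, so the levels of both genes rest on the minority of their sequence that differs, and reads in that sequence may still be split between the copies. With the reads of both genes added, the log2 fold change was 1.71 in Stat5b-/- (adjusted p = 8.49e-06) and 1.21 in Stat5a-/- (adjusted p = 2.56e-04). Igtp and Irgm2 share 162 exon bases, 8.01% of the Igtp exons and 4.39% of the Irgm2 exons. Tgtp1 shares 223 exon bases (6.96%) with Gm12185, and Ifi47 shares 111 with Olfr56 and 106 with Gm12188 on the opposite strand. Reads in bases shared by 2 genes were also left out, and strand was not used in counting.

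Iigp1, an effector member at chr18:60376029-60392627 on the plus strand, was rare in wt cells and showed the largest ratios. It had 3, 22 and 15 reads in the wt libraries, 46, 34 and 28 in Stat5a-/-, and 77, 136 and 165 in Stat5b-/-. These correspond to 0.19, 1.11 and 0.87 CPM in wt, 3.22, 2.77 and 2.52 in Stat5a-/-, and 5.28, 9.29 and 12.6 in Stat5b-/-. Relative to their mean, the Stat5b-/- libraries differed among themselves by more than for any other member, but all were above the Stat5a-/- libraries. Iigp1 was 11.9-fold higher in Stat5b-/- than in wt (log2 3.57, SE 0.40, adjusted p = 1.07e-05) and 3.78-fold higher in Stat5a-/- (log2 1.92, SE 0.46, adjusted p = 0.00509).

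**Figure D1:**
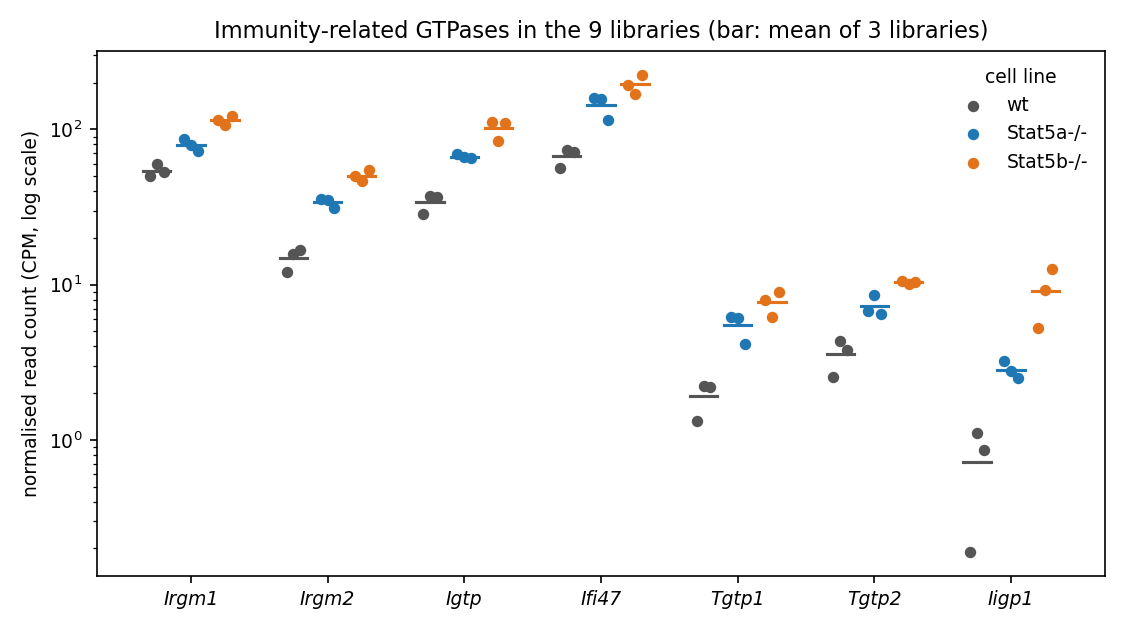
Normalised read count (CPM, log scale) of each immunity-related GTPase in the 9 libraries. Points are the 3 libraries of the wt (grey), Stat5a-/- (blue) and Stat5b-/- (orange) line and bars are their means. For each of the 7 genes the wt libraries lie lowest and the Stat5b-/- libraries highest, with Iigp1 spanning the widest range.

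All 7 genes therefore passed both limits in Stat5b-/- against wt, an adjusted p under 0.05 and a fold above 2. Irgm1, at 2.11-fold, was the closest to the fold limit. Among all genes tested, 10.6% were called higher by this rule. In Stat5a-/- against wt all 7 rose at an adjusted p under 0.05 (19.8% of all genes) and 5 of them by more than 2-fold (7.75% of all genes). Irgm1 and Igtp were the exceptions, Tgtp2 was close to the limit, and the count of 5 became 3 without wt replicate 1. The libraries did not overlap for 7 of 7 genes in either comparison, against 27.4% of all genes for Stat5b-/- above wt and 25.5% for Stat5a-/- above wt. The median log2 fold change of the members was 1.58 in Stat5b-/- and 1.10 in Stat5a-/-, beside 0.023 and 0.0099 over all genes tested. Both comparisons use the same wt libraries.

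In Stat5b-/- directly against Stat5a-/-, 6 of 7 genes were higher at an adjusted p under 0.05, as were 16.4% of all genes tested. Iigp1 differed most (3.15-fold, adjusted p = 0.00276), and it alone passed 2-fold, as 4.81% of all genes did. Igtp (1.53-fold, adjusted p = 0.00329), Irgm2 (1.48-fold, adjusted p = 0.00493) and Irgm1 (1.44-fold, adjusted p = 0.00242) followed. Tgtp2 (1.43-fold, adjusted p = 0.0477) and Ifi47 (1.36-fold, adjusted p = 0.0370) passed narrowly and both lost the call when Stat5b-/- replicate 1 or 3, Stat5a-/- replicate 3 or wt replicate 3 was left out. Tgtp2 also lost it without Stat5a-/- replicate 1 or Stat5b-/- replicate 2. Tgtp1 did not pass (1.40-fold, adjusted p = 0.106). The libraries of the lines did not overlap for 7 of 7 genes, against 22.3% of all genes.

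**Figure D2:**
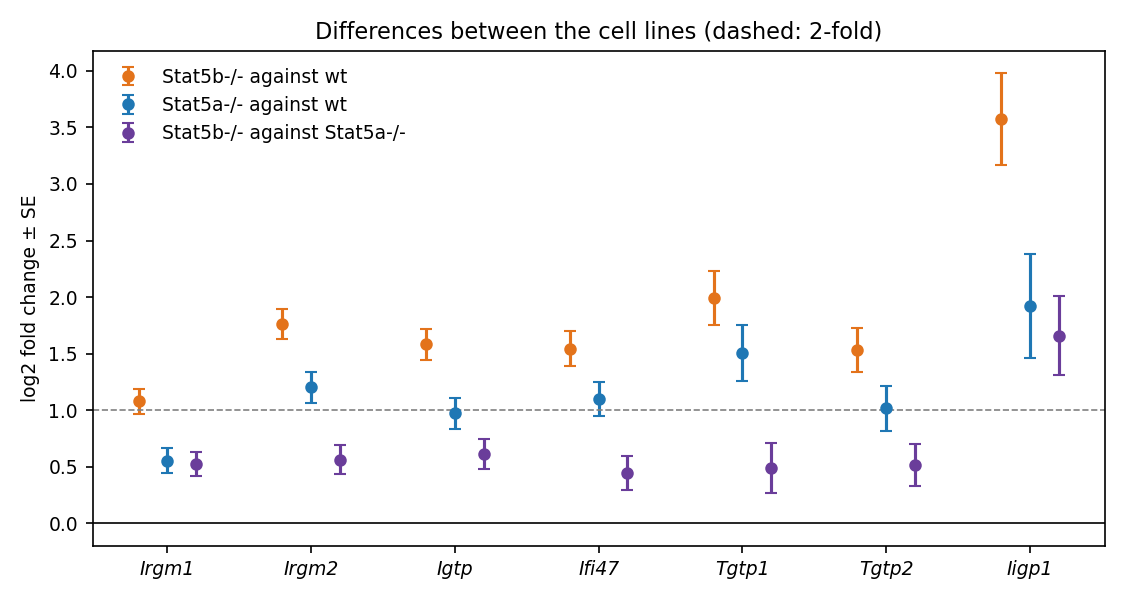
Log2 fold change with its SE for each immunity-related GTPase in Stat5b-/- against wt (orange), Stat5a-/- against wt (blue) and Stat5b-/- against Stat5a-/- (purple). The dashed line marks 2-fold. The Stat5b-/- values lie between 1.08 for Irgm1 and 3.57 for Iigp1, and each is larger than the Stat5a-/- value of the same gene.

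Most T-cell transcripts moved in the same order as the GTPases. The means of 14 of 16 markers rose from wt to Stat5a-/- to Stat5b-/-, and those of Cd2 and Cd28 did not. Cd2, named after its values were seen, fell between Stat5a-/- and Stat5b-/- (log2 -1.52, adjusted p = 6.97e-08). The 16 T-cell markers included 15 that rose in Stat5b-/- against wt and 0 that fell. Stat5a-/- had 8 higher and 0 lower. Of all genes, 24.2% were higher and 22.0% lower in Stat5b-/- by the adjusted p alone, and 19.8% and 16.3% in Stat5a-/-. Among the markers were Lck, the kinase of the T-cell receptor (log2 2.56 in Stat5b-/-, adjusted p = 4.14e-09), Zap70 (2.34, adjusted p = 4.86e-09), Lat (1.79, adjusted p = 1.72e-07) and Cd5 (1.34, adjusted p = 1.08e-05). The Stat5b-/- mean of 6 members exceeded the wt mean by a larger factor than the 2.40 of the T-cell sum, and that of Irgm1, at 2.11, by a smaller one. In Stat5a-/- Irgm1, at 1.47, was below the T-cell sum at 1.63 but above the sum without Cd2 at 1.42 and the sum of the CD3 chains at 1.38.

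Within the Stat5b-/- line, replicate 2 had the lowest T-cell sum (1832 CPM) and also the lowest Irgm1, Irgm2, Igtp, Tgtp1, Tgtp2 and Ifi47, whereas Iigp1 was lowest in replicate 1, which had the highest T-cell sum (2617 CPM). In wt, replicate 1 had the lowest T-cell sum and the lowest value of all 7 genes, as did replicate 3 in Stat5a-/-. The library of Stat5b-/- with the lowest T-cell sum and the library of Stat5a-/- with the highest (1653 CPM) differed by a factor of 1.11 in that sum, and had 1744 and 1364 CPM without Cd2. Between these libraries, Iigp1 differed by 3.36, Irgm1 by 1.33, Irgm2 by 1.33, Igtp by 1.27, Tgtp2 by 1.18, Ifi47 by 1.08 and Tgtp1 by 1.02. The Stat5a-/- library with the lowest sum (1452 CPM) and the wt library with the highest (1083 CPM) differed by 1.34 in that sum (1170 and 1027 CPM without Cd2), and their members by 1.21 (Irgm1) to 2.27 (Iigp1). These pairs were picked after the values were seen and have no test.

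With the log2 sum of the 16 T-cell markers as a covariate, a fit chosen after the data were seen, edgeR called 0 of 7 members higher in Stat5b-/- against wt (2 at an unadjusted p under 0.05), 1 of 7 in Stat5a-/- against wt (Irgm2, log2 0.79, adjusted p = 0.0211) and 0 of 7 in Stat5b-/- against Stat5a-/- (1 at an unadjusted p under 0.05), where 6.17% of all genes were called higher. All 7 estimates remained positive in both comparisons with wt, between 0.47 and 3.30 for Stat5b-/- and between 0.25 and 1.76 for Stat5a-/-. The estimate for Iigp1 stayed close to that without the covariate while its SE grew, at 3.30 (SE 1.16) in Stat5b-/- against wt and 1.54 (SE 0.59) in Stat5b-/- against Stat5a-/-. The share of all genes called higher at an adjusted p under 0.05 fell to 4.50% in Stat5b-/- and 11.1% in Stat5a-/-, from 24.2% and 19.8%.

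A narrower covariate, the sum of the CD3 chains alone (Cd3d, Cd3e, Cd3g and Cd247), left a different picture. That sum was 234 ± 42.8 CPM over the wt libraries (SD, n = 3), 322 ± 30.5 over those of Stat5a-/- and 520 ± 110 over those of Stat5b-/-. In Stat5a-/- against wt all 7 members still rose (log2 0.38 to 1.80, adjusted p of 0.0369 or less, edgeR), and 17.5% of all genes were called higher. In Stat5b-/- against wt 3 of 7 did: Irgm2 (log2 1.21, adjusted p = 0.0073), Igtp (0.82, adjusted p = 0.021) and Iigp1 (3.30, adjusted p = 0.0292), with 8.50% of all genes called. In Stat5b-/- against Stat5a-/- 0 of 7 passed (1 at an unadjusted p under 0.05), beside 6.48% of all genes, with Iigp1 at log2 1.49 (SE 0.59). The T-cell sums do not overlap between the lines, so a difference between lines and a difference in T-cell transcripts cannot be told apart in these fits.

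**Figure D3:**
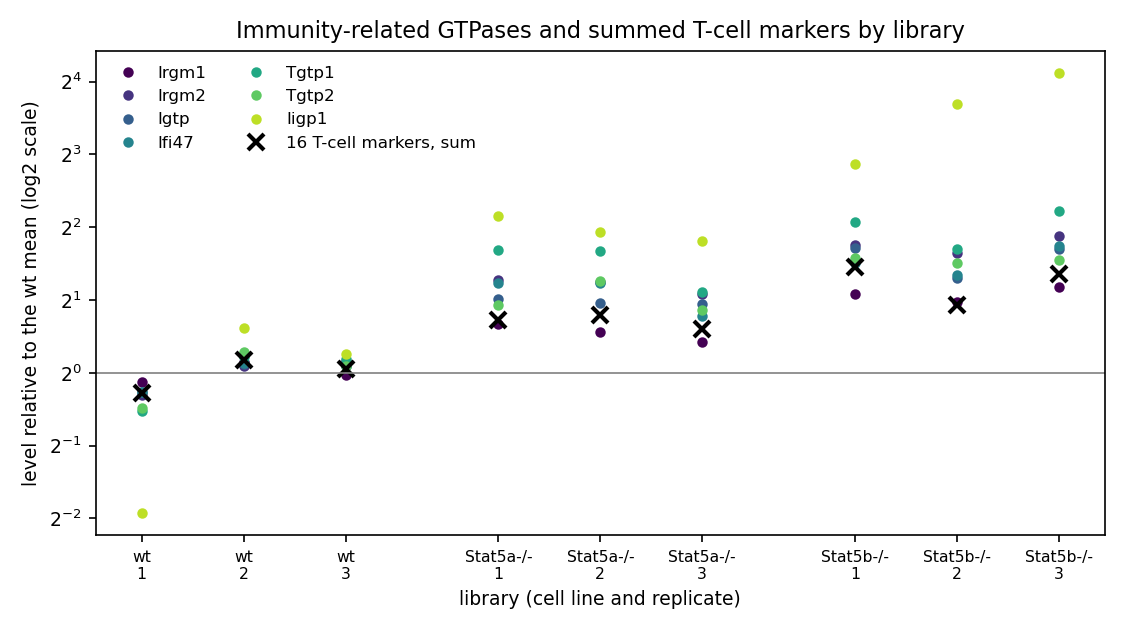
Level of each immunity-related GTPase (coloured points) and of the summed 16 T-cell markers (black crosses) in the 9 libraries, each divided by its mean over the wt libraries (log2 axis). The crosses lie at 1.63 on average in Stat5a-/- and 2.40 in Stat5b-/-, above the Irgm1 points in all but 1 of these 6 libraries and below most other members.

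Per exon length, the order of the members was the same in wt and Stat5a-/-. The places of Tgtp1 and Tgtp2 in it cannot be read as abundance, since 81.2% and 86.6% of their 50-base runs also occur in other genes, where reads were largely not counted. In wt it ran from Ifi47 (27.2 ± 3.89 RPKM, the CPM divided by the exon length in kilobases, SD, n = 3) through Igtp (16.9 ± 2.40), Irgm1 (9.33 ± 0.90), Irgm2 (4.01 ± 0.67), Tgtp2 (1.21 ± 0.32) and Tgtp1 (0.60 ± 0.16) to Iigp1 (0.23 ± 0.15), and no neighbours in this order overlapped. In Stat5b-/-, Ifi47 (79.2 ± 11.3), Igtp (50.5 ± 7.72), Irgm1 (19.7 ± 1.42) and Irgm2 (13.7 ± 1.08) again stood apart from each other, while Iigp1 (2.90 ± 1.17) overlapped both Tgtp2 (3.54 ± 0.09) and Tgtp1 (2.41 ± 0.43). Summed over the 7 genes, the level was 176 ± 23.1 CPM for wt, 340 ± 36.6 for Stat5a-/- and 490 ± 56.2 for Stat5b-/-.

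Of 10 further IRG genes 9 were tested, and 7 rose and 0 fell in Stat5b-/- by the adjusted p alone, beside 24.2% of all genes called higher and 22.0% called lower. In Stat5a-/- 4 rose and 0 fell, beside 19.8% and 16.3% of all genes. Of the 9, F830016B08Rik, Gm4951 and Gm4841 passed the low-count filter only through the Stat5b-/- libraries, where they are high, so their calls are no support. Among the other 6 genes, 4 rose and 0 fell in Stat5b-/-, with a median log2 fold change of 0.95, and 1 rose and 0 fell in Stat5a-/-, with a median of 0.37. For these genes and the interferon genes that follow, the part of the T-cell transcripts, which were 2.40 times the wt level in Stat5b-/- and 1.63 times in Stat5a-/-, was not tested. Gm12250 (Irgb10), an effector that acts on bacteria, had 3.30, 3.54 and 3.29 CPM in wt, 13.2, 12.7 and 12.5 in Stat5a-/-, and 21.7, 23.1 and 25.4 in Stat5b-/-. The lines did not overlap, and the gene rose 6.90-fold in Stat5b-/- (adjusted p = 3.02e-09) and 3.79-fold in Stat5a-/- (adjusted p = 1.44e-07).

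Several of these genes were nearly silent in wt cells. F830016B08Rik had 0 reads in each wt library, 2, 2 and 1 in Stat5a-/-, and 32, 25 and 19 in Stat5b-/-. Taken against a floor of 3 reads over the wt libraries, it was at least 31.6-fold higher in Stat5b-/-. Gm4951 had 3 wt reads in all, 21 in Stat5a-/- and 111 in Stat5b-/-, a ratio to wt of 46.2 in Stat5b-/- (95% exact interval 15.4 to 227, counting error only). Gm4841 had 3 wt reads, 26 in Stat5a-/- and 57 in Stat5b-/-, a ratio of 23.7 (7.72 to 118). Gm5431 (log2 1.55, adjusted p = 0.00324), Gm12185 (1.25, adjusted p = 0.00227) and Irgq (0.66, adjusted p = 0.00247) rose in Stat5b-/- and had adjusted p of 0.0902, 0.0855 and 0.939 in Stat5a-/-. Values for 9930111J21Rik1 (0.42, adjusted p = 0.235) and 9930111J21Rik2 (0.46, adjusted p = 0.158) did not pass.

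Upstream of the GTPases, the genes of interferon-gamma signalling moved in both directions. Of 9 tested genes 6 rose and 1 fell in Stat5b-/- against wt, and 5 rose and 3 fell in Stat5a-/-. Of all genes, 24.2% were called higher and 22.0% lower in Stat5b-/-, and 19.8% and 16.3% in Stat5a-/-, and the lists that follow read against the same shares. The median log2 fold changes of 0.53 and 0.34 stand beside 0.023 and 0.0099 over all genes. Irf1, a factor that binds ISRE elements, had 22.0, 21.7 and 21.2 CPM in wt, 44.1, 42.9 and 41.7 in Stat5a-/-, and 63.3, 69.0 and 66.1 in Stat5b-/-. Its libraries fell into 3 tight and separate groups, 3.06-fold above wt in Stat5b-/- (adjusted p = 2.20e-08) and 1.98-fold in Stat5a-/- (adjusted p = 2.87e-06).

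The receptor and kinase genes changed by less. Ifngr1, the ligand-binding chain, rose in Stat5b-/- (log2 0.66, adjusted p = 6.83e-05) and Stat5a-/- (0.48, adjusted p = 0.00115), while Ifngr2 fell by 0.26 (adjusted p = 0.0380) and by 0.46 (adjusted p = 0.00175). Jak1 rose by 0.53 in Stat5b-/- (adjusted p = 2.73e-04) and fell by 0.25 in Stat5a-/- (adjusted p = 0.0433). Jak2 rose by 0.66 in Stat5b-/- (adjusted p = 0.00246). Socs1, the inhibitor of this pathway, was higher in both lines but in the opposite order to the GTPases, at 1.83 in Stat5a-/- (adjusted p = 1.04e-05) and 0.76 in Stat5b-/- (adjusted p = 0.00795), with a lower level in Stat5b-/- when the knockout lines were compared (adjusted p = 0.00114). Ifng, which encodes the ligand, had between 0 and 3 reads per library and was not tested.

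Of the 7 tested genes of type I interferon signalling, 6 rose and 1 fell in Stat5b-/- against wt, with a median log2 fold change of 0.79. Stat5a-/- had 2 that rose and 0 that fell, with a median of 0.25, beside 19.8% of all genes called higher. Irf7 rose 5.06-fold in Stat5b-/- (adjusted p = 3.61e-08) and 2.03-fold in Stat5a-/- (adjusted p = 1.28e-04). Usp18, a brake on the type I receptor, was 5.09-fold higher in Stat5b-/- (adjusted p = 7.64e-08) and 1.36-fold in Stat5a-/- (adjusted p = 0.0680). Irf9 (2.60-fold, adjusted p = 3.25e-07) and Stat2 (1.73-fold, adjusted p = 1.66e-04) rose in Stat5b-/-, whereas their adjusted p in Stat5a-/- were 0.104 and 0.136. Each of these 4 genes was also higher in Stat5b-/- than in Stat5a-/-, with adjusted p between 1.11e-06 for Usp18 and 0.00468 for Stat2. Tyk2 fell by 0.44 on the log2 scale in Stat5b-/- (adjusted p = 0.0271). Ifnb1 had 0 reads in all 9 libraries.

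**Figure D4:**
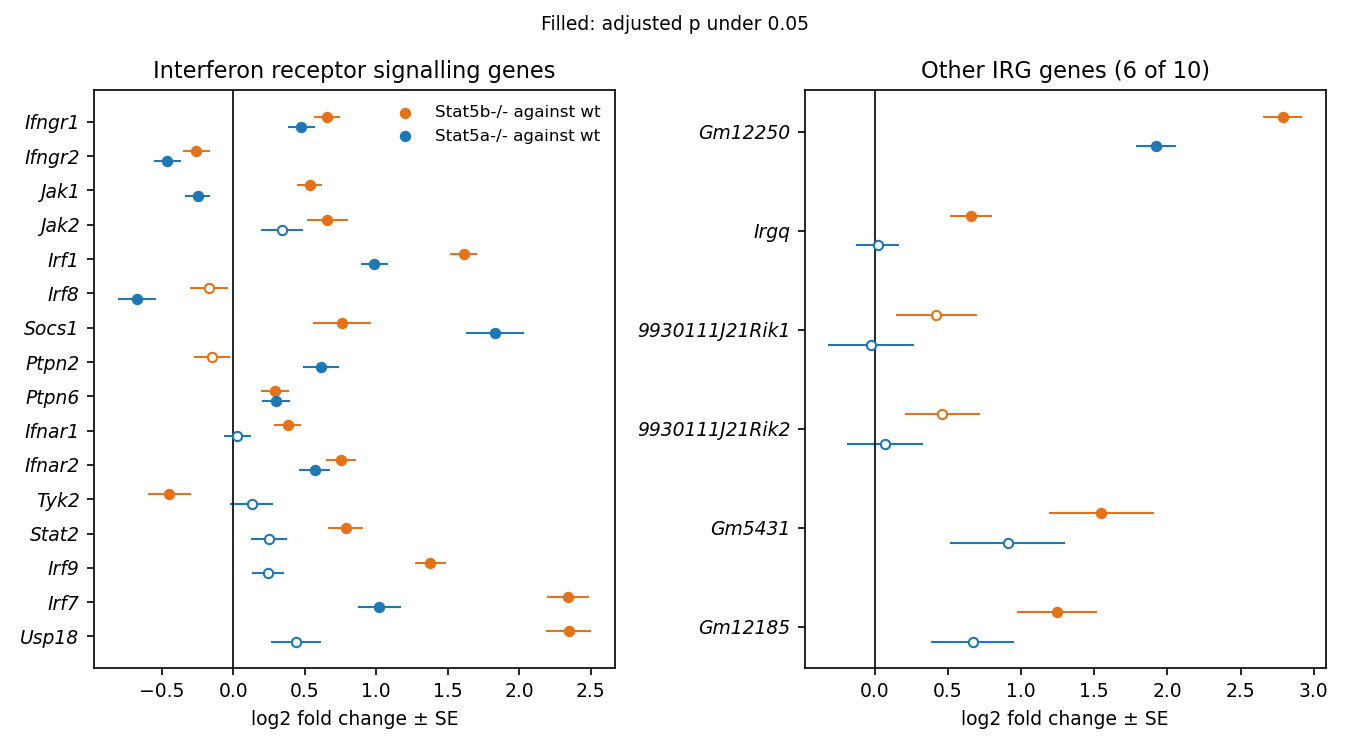
Log2 fold change with its SE in Stat5b-/- (orange) and Stat5a-/- (blue) against wt for the tested genes of interferon signalling (left) and for 6 further IRG genes (right). Filled points passed an adjusted p of 0.05. 3 IRG genes with 3 or fewer wt reads are not drawn. Irf7 and Usp18 lie furthest to the right among the signalling genes in Stat5b-/-, and Socs1 in Stat5a-/-.

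The 15 other targets of interferon-gamma showed 11 higher and 1 lower in Stat5b-/- and 6 higher and 1 lower in Stat5a-/-, with median log2 fold changes of 0.94 and 0.67, beside 24.2% and 19.8% of all genes called higher. Nlrc5, the activator of MHC class I genes (log2 2.19, adjusted p = 2.03e-08), the immunoproteasome subunit Psmb9 (2.13, adjusted p = 4.37e-09), the peptide transporter Tap1 (1.83, adjusted p = 3.59e-09) and the chemokine Cxcl10 (1.60) led in Stat5b-/-. Without the 2 genes that passed the filter only through Stat5b-/- (Cxcl10 and Casp4, the latter named for this reason), 10 of 13 were higher and 1 lower. Among 11 tested members of other inducible GTPase families, 10 rose and 0 fell in Stat5b-/-, and 5 rose and 0 fell in Stat5a-/-, with medians of 1.58 and 0.97. Gbp2, a guanylate-binding protein, was at 7.19 CPM in wt, 78.0 in Stat5a-/- and 52.5 in Stat5b-/-, and its level differed between the knockout lines (adjusted p = 0.00339). Gbp5 rose by 1.87 in Stat5a-/- (adjusted p = 7.79e-07) and 1.75 in Stat5b-/- (adjusted p = 1.29e-06) on the log2 scale. The antiviral gene Mx1 rose in Stat5b-/- (log2 2.02, adjusted p = 2.10e-04) and had an adjusted p of 0.285 in Stat5a-/-. Its relative Mx2 (log2 2.58 in Stat5b-/-) passed the filter only with the Stat5b-/- libraries, and without it 9 of 10 genes rose and 0 fell in Stat5b-/-. In Stat5b-/- directly against Stat5a-/-, 5 of the 11 were higher and 3 lower, beside 16.4% and 17.5% of all genes.

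The LC3 conjugation machinery directs the effector GTPases to the vacuole. Of its 13 genes and recruitment factors, 2 rose and 4 fell in Stat5b-/-, 1 rose and 3 fell in Stat5a-/-, and the median log2 fold changes were -0.037 and -0.050. The shares over all genes were 24.2% higher and 22.0% lower in Stat5b-/- and 19.8% and 16.3% in Stat5a-/-. Trim21, an interferon-inducible ubiquitin ligase, was the larger of the 2 that rose in Stat5b-/- (log2 1.28, adjusted p = 2.55e-05) and Atg12 the other (0.59, adjusted p = 8.96e-04). Gabarapl1 fell by 1.38 (adjusted p = 6.21e-07) and Map1lc3a by 1.07 (adjusted p = 0.00167).

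Among all other tested genes, those whose log2 CPM profile over the 9 libraries lay closest to the mean profile of the members (Euclidean distance of the deviations from each gene's own mean) were Oas2 (0.44), AW112010 (0.45), Abcg3 (0.46), Zbp1 (0.48) and Lcp2 (0.48). Of the members, Irgm2 was nearest to the mean profile (0.28) and Iigp1 farthest (2.40), which puts 5788 other genes nearer than Iigp1. Oas2, a sensor of double-stranded RNA, had a mean of 2.11 CPM in wt, 4.85 in Stat5a-/- and 8.23 in Stat5b-/-. Zbp1, a nucleic acid sensor, had 11.6, 27.0 and 51.0 CPM. Lcp2, an adaptor of T-cell receptor signalling, had 75.8, 135 and 253 CPM in the same order.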

How the data were processed

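The authors trimmed the 50 bp single-end reads of polyA RNA libraries with Trimmomatic, mapped them with STAR (GENCODE M13, GRCm38) and counted them per gene. The deposited values are raw counts from featureCounts 1.5.1. Per the file headers, no option for strand, multi-mapping or overlapping genes was set.

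Libraries were grouped by title and genotype label. The description field of the knockout libraries names wt lines, against those labels. Counts of all 9 libraries were filtered with filterByExpr, scaled with TMM and fitted with the quasi-likelihood test of edgeR 4.0.16 (R 4.3.3, two-sided), and p-values were adjusted by Benjamini-Hochberg over 13852 genes. SE was obtained by dividing the size of the log2 fold change by the root of F. The code was tested on simulated data. Intervals and floors cover counting error only. DESeq2 1.42.0, RLE scaling, other filters, libraries left out, a replicate block, glmTreat and T-cell covariates were tried, the covariates after seeing the data.

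Members and lists were chosen with earlier results of these data known. Members, other IRG genes and interferon signalling genes could be named, as could the 5 genes nearest the mean member profile, the Stat5 genes and, of each other list, the 4 called genes with the largest absolute log2 fold change in Stat5b-/- against wt. Of 7 tested natural killer markers 5 rose and 1 fell in Stat5b-/- against wt, and 0 rose and 1 fell in Stat5a-/-. The sum of all 9 listed was 40.4 CPM in wt, 39.2 in Stat5a-/- and 65.6 in Stat5b-/-. Of the 6 macrophage markers that passed the filter without the Stat5b-/- libraries, 2 rose and 2 fell in Stat5b-/-, and 0 and 3 in Stat5a-/-. Of 14 B-lineage markers 7 rose and 4 fell in Stat5b-/-, and 7 and 3 in Stat5a-/-. Of all genes, 24.2% were higher and 22.0% lower in Stat5b-/-, and 19.8% and 16.3% in Stat5a-/-. 1 gene of the interferon-gamma signalling list is not reported here and was left out of its counts.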

Additional observations from a re-analysis of the deposited data

How the results depend on the processing

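Over the 7 genes, 3 comparisons and 18 other settings, 320 log2 fold changes kept their direction and their side of the adjusted p of 0.05, 55 no longer passed it and 3 changed sign, the last all in Stat5b-/- against Stat5a-/- with a T-cell covariate. The count of members past both limits was 7 in Stat5b-/- against wt with each library left out in turn, 3 to 6 in Stat5a-/- against wt, where it was 3 without wt replicate 1, and 1 to 1 in Stat5b-/- against Stat5a-/-. Without the fold limit 6 members were higher in Stat5b-/- against Stat5a-/- with all libraries, and 4 to 6 with a library left out, with 4 without wt replicate 3, Stat5a-/- replicate 3 or Stat5b-/- replicate 1 or 3. Testing whether the fold exceeds 2 (edgeR glmTreat) called 6 members in Stat5b-/- against wt, where Irgm1 was lost (1.08, adjusted p = 0.615), 0 members in Stat5a-/- against wt (3 at an unadjusted p under 0.05) and 0 in Stat5b-/- against Stat5a-/- (1 at an unadjusted p under 0.05). With the 16 T-cell markers as covariate the 3 counts past both limits were 0, 0 and 0 (2, 4 and 1 at an unadjusted p under 0.05), and with the CD3 chains 2, 2 and 0 (6, 7 and 1). Tgtp1 and Tgtp2 added gave, in Stat5b-/- against wt, 1.71, and 0.53 (adjusted p = 0.491) with the T-cell markers and 0.82 (0.115) with the CD3 chains; in Stat5a-/- against wt, 1.21, not called by glmTreat (adjusted p = 0.451), and 0.54 (0.187) with the T-cell markers. In Stat5b-/- against Stat5a-/- their sum was 0.50 (adjusted p = 0.0466), 0.40 to 0.61 with a library left out (adjusted p up to 0.127), 0.50 by glmTreat (adjusted p = 1), -0.011 with the T-cell markers and -0.025 with the CD3 chains. There Tgtp1 alone was -0.18 with the T-cell markers and -0.22 with the CD3 chains, and Ifi47 -0.026 with the CD3 chains. For the results that changed, the cause was not tested. Shares of all genes called were counted only for the main fit and, by the adjusted p alone, for the covariate fits. The other counts of members given here have no such share beside them.

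Libraries with the same replicate number had a mean correlation of deviations of -0.088 (9 pairs, -0.45 to 0.22). For different numbers it was 0.044 (18 pairs, -0.43 to 0.39). These values show no pairing by number, but so few pairs, which share libraries, cannot exclude one. With the number as a block, 7, 7 and 4 members were higher at an adjusted p under 0.05, Tgtp2 and Ifi47 being lost in Stat5b-/- against Stat5a-/-, and Tgtp1 and Tgtp2 added gave 0.51 (adjusted p = 0.0745) there. With RLE scaling 5 members were higher in that comparison, and with DESeq2 6. For these settings, too, the share of all genes called was not counted. At this depth the wt level of Iigp1, at 3 to 22 reads, is imprecise.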
